A study of Homo sapiens with 3 samples.

Results

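Phosphatidylcholine, phosphatidylethanolamine and phosphatidylserine are made in animal cells by a small set of enzymes, and the guide RNAs against the genes of these enzymes were followed through a pooled CRISPR knockout screen in MIA PaCa-2, an established line of human pancreatic ductal adenocarcinoma cells. The members were all guides whose target is CHKA, CHKB, PCYT1A, PCYT1B, PCYT2, ETNK1, ETNK2, CEPT1, CHPT1, EPT1 (also SELENOI), PEMT, PISD, PTDSS1 or PTDSS2. EPT1 and SELENOI were not found in the files under either name, so 13 genes with 130 guides were described, out of 2978 genes and 30197 guides in all. Of the 130 guides, 123 had at least 100 counts in the initial population and were scored, and each of the 13 genes kept 8 to 10 guides.

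All cells carried the metabolic gene knockout library, delivered as virus and followed by puromycin selection. The initial population was collected untreated at day 0. The DMSO group was grown for 14 days in the solvent alone. The apilimod group was grown for 14 days in apilimod, which blocks PIKfyve, a lipid kinase, at 200 nM by its label, although the study's methods give another concentration. Each group was 1 pool of cells and 1 sequenced library, so no difference below has a replicate check, and every test compares these libraries and not the conditions. Guide counts come from genomic DNA and carry no expression, so the labelled cell type could not be checked against markers.

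Most phosphatidylcholine is made by the CDP-choline pathway. A choline kinase (CHKA or CHKB) phosphorylates choline, PCYT1A or PCYT1B turns phosphocholine into CDP-choline with CTP, at the step that usually limits the rate, and a phosphotransferase (CHPT1 or CEPT1) joins the head group to diacylglycerol. Phosphatidylethanolamine has a parallel route through ethanolamine kinases (ETNK1, ETNK2), PCYT2 and the ethanolamine phosphotransferases CEPT1 and EPT1. It is also made in the mitochondrial inner membrane by PISD, which decarboxylates phosphatidylserine. PTDSS1 makes phosphatidylserine from phosphatidylcholine and PTDSS2 makes it from phosphatidylethanolamine, by head group exchange. PEMT, best known from liver, methylates phosphatidylethanolamine to phosphatidylcholine.

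The initial, DMSO and apilimod libraries held 24695476, 26276517 and 25599416 counts, with a median of 651, 663 and 655 counts per guide. A guide's change was the log2 ratio of its counts plus 1 per library total, and a gene's score was the mean over its guides, given with the SD over guides. The yardstick was 487 control guides that cut intergenic sequence, whose median log2 change was 0.14 in DMSO and 0.22 in apilimod. Their spread was larger in apilimod, with a central 95% from -0.85 to 2.41 against -0.78 to 0.85 in DMSO. The test for a gene was an exact rank-sum of its guides with those of the controls, two-sided, adjusted by Benjamini-Hochberg over the 2969 genes scored. A gene was called lower or higher at an adjusted p under 0.05. Intervals on counts are exact binomial intervals on reads, so they cover counting error only. The reads carry no molecular identifiers, so reads and not molecules are counted.

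In DMSO, guides were lost against genes of all 3 branches. PISD, PCYT1A, PTDSS1, PCYT2 and CEPT1 were called lower than the control guides, which is 5 of 13 genes where 18.9% of all genes were called lower. None of the 13 was called higher, against 0.842% of all genes. By size alone, PISD, PCYT1A and PTDSS1 lay past 2-fold below the control median, where 6.53% of all genes did. The median score of the 13 genes was -0.12, beside -0.03 over all genes. At the level of guides, 34 of 123 lay at least 2-fold below the control median (12.2% of 28042 gene-targeting guides) and none lay 2-fold above it (0.906%). The 5 called genes held 28 of these 34 guides. In 3 of the 5 steps with isozymes, PCYT1A, CEPT1 and PTDSS1 were called and PCYT1B, CHPT1 and PTDSS2 were not. The differences between isozymes were not tested.

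In apilimod the same 5 genes and CHKA, CHKB and PTDSS2 were called lower, which is 8 of 13 where 29% of all genes were called lower, and none was called higher (0.236% of all genes). Past 2-fold below the control median lay PCYT1A, PISD, PTDSS1, PCYT2, CEPT1 and CHKA (9.77% of all genes). The median score of the 13 was -0.43, beside -0.04 over all genes. Of the 123 guides, 42 were at least 2-fold below the control median (16.1% of gene-targeting guides) and 2 at least 2-fold above it (3.05%). The choice of yardstick mattered for these counts. With all gene-targeting guides in place of the control guides, CEPT1, PCYT1A, PCYT2, PISD and PTDSS1 were still called lower in apilimod, whereas CHKA, CHKB and PTDSS2 were not. In DMSO the call of PCYT2 ended in that setting.

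At the CDP-choline step of the choline branch, PCYT1A was depleted in both arms. Guides against PCYT1A, the widely expressed isozyme, together made up 248 CPM (counts scaled to the library total) in the initial population (95% exact binomial interval 242 to 254), 107 in DMSO (103 to 111) and 94.2 in apilimod (90.5 to 98.0). Its score was -1.33 ± 1.03 in DMSO and -2.93 ± 3.36 in apilimod (SD over 9 guides), with 8 of 9 guides below the control median in each arm. The exact rank-sum test gave adjusted p-values of 3.38e-05 and 4.88e-05 (Benjamini-Hochberg). These scores ranked 117 and 15 from the lowest of 2969 genes.

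The guides of PCYT1A disagreed widely. In DMSO they ran from -3.10 for sgPCYT1A_6 to 0.31 for sgPCYT1A_5. In apilimod sgPCYT1A_6 went from 489 counts initially and 60 in DMSO to 0, and sgPCYT1A_9 from 222 and 77 to 0, while sgPCYT1A_8 went from 524 and 161 to 34. Against a floor of 3 counts per library, sgPCYT1A_6 was at least 169-fold and sgPCYT1A_9 at least 76.7-fold lower in apilimod than in the initial population. sgPCYT1A_5 stood at 192, 253 and 306 counts, above its initial share in each arm. With the guides at 0 set to 3 counts the apilimod score was -2.48 ± 2.56 (SD over 9 guides), and without them it was -1.36 ± 1.41 (SD over 7 guides), still called lower (exact rank-sum, Benjamini-Hochberg adjusted p = 0.00197). The order of PCYT1A and PISD in apilimod turned with the guides at 0, since PISD scored -2.81 with all guides, -2.61 with its guide at 0 set to 3 counts and -2.24 without it.

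PCYT1B, the second isozyme of the same step, was not depleted past the test. Its guides summed to 264 CPM initially, 320 in DMSO and 347 in apilimod. The score was 0.13 ± 0.39 in DMSO and 0.36 ± 0.85 in apilimod, SD over 10 guides (exact rank-sum, Benjamini-Hochberg adjusted p = 0.931 and 0.722). In DMSO 7 of 9 PCYT1A guides lay below every PCYT1B guide, although the ranges overlapped. The highest PCYT1B guide in apilimod was sgPCYT1B_5, with 302, 278 and 1215 counts in the initial population, DMSO and apilimod.

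At the last step of the branch, CEPT1, which can make both phosphatidylcholine and phosphatidylethanolamine, was depleted, with the smallest SD over guides of the 5 genes called in DMSO. Its guides summed to 448 CPM initially (95% exact binomial interval 440 to 457), 282 in DMSO (276 to 289) and 229 in apilimod (223 to 235). The score was -0.64 ± 0.42 in DMSO and -0.94 ± 0.53 in apilimod, and 9 of 9 guides lay below the control median in both arms (exact rank-sum, Benjamini-Hochberg adjusted p = 1.01e-05 and 8.56e-08). The guides ran from -1.20 to 0.03 in DMSO and from -1.99 to -0.23 in apilimod, with sgCEPT1_7 the lowest in each (691, 319 and 179 counts). CHPT1, the choline-specific enzyme, scored 0.19 ± 0.41 in DMSO and 0.32 ± 0.55 in apilimod (SD over 10 guides). It was not called (exact rank-sum, Benjamini-Hochberg adjusted p = 0.667 and 0.791), and its summed share was 331, 392 and 383 CPM in the initial population, DMSO and apilimod. In apilimod 9 of 10 CHPT1 guides lay above every CEPT1 guide. The CHPT1 guide highest in apilimod, sgCHPT1_5, started from only 120 counts and stood at 130 in DMSO and 335 in apilimod.

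The choline kinases, the first step, gave mixed guides. CHKA scored -0.47 ± 0.90 in DMSO, where it was not called, and -0.87 ± 0.92 in apilimod, where 7 of 8 guides lay below the control median (exact rank-sum, Benjamini-Hochberg adjusted p = 0.254 and 0.00107). Its summed share was 179, 168 and 125 CPM in the initial population, DMSO and apilimod. sgCHKA_6 and sgCHKA_9 fell in both arms, from 558 to 183 and 167 counts and from 581 to 213 and 146, whereas sgCHKA_7 went from 1629 to 2034 and 1433. In each library sgCHKA_7 held more counts than any other CHKA guide, and so weighs most in the summed share.

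CHKB scored -0.12 ± 0.55 in DMSO and -0.43 ± 0.88 in apilimod (SD over 9 guides), with adjusted p-values of 0.35 and 0.0278 (exact rank-sum, Benjamini-Hochberg). The apilimod call ended in 3 alternatives, with all gene-targeting guides as the yardstick (adjusted p = 0.486 by the same exact test), with a minimum of 30 initial counts (0.119) and with no minimum (0.117). Both lower minima let in 1 guide, sgCHKB_1, which had 57, 100 and 657 counts. The kept guides ran from -1.98 for sgCHKB_10 to 1.02 for sgCHKB_2 in apilimod, and the ranges of CHKA and CHKB overlapped in both arms. PEMT scored 0.18 ± 0.45 in DMSO and 0.12 ± 0.35 in apilimod (SD over 10 guides), 5 of 10 guides lay below the control median in each arm, and it was not called (exact rank-sum, Benjamini-Hochberg adjusted p = 0.826 and 0.637). Its apilimod guides had the smallest SD of the 13 genes.

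In the ethanolamine branch, PCYT2, which makes CDP-ethanolamine, was the depleted gene. Its guides summed to 372 CPM initially (95% exact binomial interval 364 to 379), 189 in DMSO (183 to 194) and 176 in apilimod (171 to 181). The score was -0.76 ± 0.86 in DMSO and -1.09 ± 0.99 in apilimod (SD over 10 guides), with 9 of 10 guides below the control median in DMSO and 9 of 10 in apilimod (exact rank-sum, Benjamini-Hochberg adjusted p = 0.00311 and 0.000164). With all gene-targeting guides as the yardstick the adjusted p in DMSO was 0.0972 by the same exact test. sgPCYT2_1, sgPCYT2_5 and sgPCYT2_9 were the lowest in DMSO, at -2.09, -1.77 and -1.55, and stood at -1.47, -1.64 and -1.45 in apilimod. Of these, sgPCYT2_1 was 1.54-fold higher in apilimod than in DMSO. By contrast sgPCYT2_3 and sgPCYT2_8 fell mainly in apilimod, with 530, 360 and 85 counts and 270, 423 and 116 counts, and sgPCYT2_10 went from 462 to 540 and 840.

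The ethanolamine kinases were not called in either arm. ETNK1 scored -0.11 ± 0.69 in DMSO and -0.23 ± 0.85 in apilimod, and ETNK2 0.06 ± 0.48 and 0.05 ± 0.45 (SD over 9 guides each). The exact rank-sum test gave adjusted p-values of 0.705 and 0.0918 for ETNK1 and 0.792 and 0.436 for ETNK2 (Benjamini-Hochberg). Their summed shares moved little, from 275 to 274 and 276 CPM for ETNK1 and from 356 to 386 and 368 for ETNK2. Within ETNK1, sgETNK1_8 was the lowest guide in both arms (235, 102 and 56 counts), and the remaining 8 ranged from -0.89 to 0.72 in DMSO. The ranges of ETNK1 and ETNK2 overlapped in both arms.

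The serine branch held the most depleted gene in DMSO. PISD guides summed to 258 CPM initially (95% exact binomial interval 252 to 265), 83.2 in DMSO (79.8 to 86.8) and 81.2 in apilimod (77.7 to 84.7). The score was -2.20 ± 2.61 in DMSO and -2.81 ± 2.70 in apilimod (SD over 10 guides), ranked 32 and 22 from the lowest of 2969 genes. In each arm 9 of 10 guides lay below the control median, and 7 lay at least 2-fold below it (exact rank-sum, Benjamini-Hochberg adjusted p = 7.59e-06 and 1.91e-05). Without the guide farthest from its median the DMSO score relative to the control median was -1.66, against -2.34 with all guides.

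The deepest losses fell on different PISD guides in the 2 arms. In DMSO sgPISD_2 went from 1197 counts to 3, a log2 change of -8.32 (95% exact counting interval -11.01 to -7.18), and sgPISD_5 from 1437 to 41. In apilimod these guides stood at 151 and 105 counts. There, sgPISD_7 went from 241 counts to 0, at least 83.3-fold lower against the floor of 3 counts, and sgPISD_6 from 675 to 8, while DMSO held 86 and 198 counts of them. sgPISD_3 was above its initial share in both arms, with 322, 456 and 681 counts.

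PTDSS1 was depleted in both arms. Its summed share was 574 CPM initially (95% exact binomial interval 564 to 583), 328 in DMSO (321 to 335) and 275 in apilimod (268 to 281). The score was -1.001 ± 0.86 in DMSO and -1.13 ± 0.92 in apilimod (SD over 10 guides), and 7 guides in each arm were at least 2-fold below the control median (exact rank-sum, Benjamini-Hochberg adjusted p = 0.000578 and 6.98e-06). The 3 guides of highest initial count that fell were sgPTDSS1_1 with 4048, 1929 and 1566 counts, sgPTDSS1_7 with 2601, 1225 and 791, and sgPTDSS1_4 with 2401, 971 and 1335. sgPTDSS1_10 went opposite ways, from 241 counts to 56 in DMSO and 313 in apilimod.

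PTDSS2 scored 0.10 ± 0.62 in DMSO and -0.12 ± 0.50 in apilimod (SD over 10 guides), with adjusted p-values of 0.953 and 0.0283 (exact rank-sum, Benjamini-Hochberg). In apilimod 9 of its 10 guides lay below the control median but none was 2-fold below it. The call ended with all gene-targeting guides as the yardstick (adjusted p = 0.765 by the same exact test), and the score in apilimod lay near the median of all genes, -0.04. In both arms 7 of 10 PTDSS1 guides lay below every PTDSS2 guide.

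The direct comparison asks which of these knockouts cost the cells more under apilimod than under DMSO. None of the 13 genes was called lower (0.573% of all genes were) or higher (0.202%), 0 of 13 had an unadjusted p under 0.05 in the exact rank-sum test, and Benjamini-Hochberg adjusted values spanned 0.496 for CHKA to 0.997 for CHPT1. With all gene-targeting guides as the yardstick the count was 0 as well, where 7 of all 2969 genes were called lower and 6 higher. For this test each arm was rescaled to put the median control guide at 0 and the median of 28 nucleotide synthesis genes at -1. The p-values depended on that scaling. Without it the lowest adjusted p of the 13 was 0.150, for CHKA (exact rank-sum, Benjamini-Hochberg). With V-ATPase genes as the reference it was 0.0790, again for CHKA by the same exact test. The log2 ratios printed here are unscaled. The median ratio of the 13 genes was -0.22, beside -0.01 over all genes and 0.01 for the control guides. By the z score of the scaled difference, 10 of the 13 lay below 0, beside 1523 of all 2969 genes. PTDSS1 and ETNK2 had ratios below the control median but scaled differences above it.

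PCYT1A was the extreme case by size. Its mean log2 ratio of apilimod to DMSO was -1.59 ± 2.69 (SD over 9 guides), the second lowest of 2969 genes, and it was the only one of the 13 past 2-fold below the control median, where 0.472% of all genes were. None lay past 2-fold above it (0.0674%). The z score of its scaled difference was -4.59, the third lowest. By scaled difference 5 of 9 guides lay below the control median and 4 above, with an adjusted p of 0.674 (exact rank-sum, Benjamini-Hochberg). The ratio rested on sgPCYT1A_6 and sgPCYT1A_9, at least 19.5-fold and 25.0-fold lower in apilimod than in DMSO, and on sgPCYT1A_8, at -2.17. With the guides at 0 set to 3 counts the ratio was -1.15 ± 1.88 (SD over 9 guides), and without them -0.31 ± 1.02 (SD over 7 guides). The z score in these 2 settings was -3.45 and -0.51. sgPCYT1A_3 had the highest ratio, 0.76. Over all 13 genes, 15 of 123 guides had a ratio at least 2-fold below the control median (5.52% of gene-targeting guides) and 6 at least 2-fold above it (6.52%).

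The ratio of PISD was -0.62 ± 3.16 (SD over 10 guides), the largest SD of the group. It ran from -6.41 for sgPISD_7 to 5.29 for sgPISD_2, and leaving out the guide at 0 moved the mean to 0.03 ± 2.57 (SD over 9 guides). CHKA had a ratio of -0.40 ± 0.34 with all 8 guides below 0, from -1.04 to -0.03, whereas by scaled difference 5 of 8 lay below the control median and 3 above. PCYT2 stood at -0.33 ± 0.97 (SD over 10 guides), CHKB at -0.31 ± 0.66 and CEPT1 at -0.30 ± 0.39 (SD over 9 guides each), and PTDSS2 at -0.22 ± 0.72 (SD over 10 guides). PTDSS1, ETNK1, PEMT and ETNK2 lay between -0.13 and -0.01, and CHPT1 and PCYT1B at 0.13 and 0.23. Apart from PCYT1A and PISD, the SDs over guides of the 13 genes ran from 0.29 for PEMT to 1.07 for PTDSS1. Of these 11 genes only CHKA had a mean larger than its SD, which measures spread between guides and not the error of the mean.

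Guides left out for fewer than 100 initial counts were sgCEPT1_5 (99, 71 and 112 counts), sgCHKA_1 (85, 128 and 11), sgCHKA_4 (69, 4 and 18), sgCHKB_1 (57, 100 and 657), sgETNK1_9 (16, 27 and 354), sgETNK2_2 (58, 29 and 0) and sgPCYT1A_10 (65, 114 and 141), in the order initial population, DMSO and apilimod. sgCHKB_1 and sgETNK1_9 rose at least 4-fold in apilimod and neither did in DMSO. Of all gene-targeting guides under 100 initial counts, 24.2% of 1618 rose at least 4-fold in apilimod and 3.52% in DMSO. Of the control guides under this count, 9 of 12 did in apilimod and 0 of 12 in DMSO.

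Of 17 scored genes of choline and ethanolamine supply, 3 were lower in DMSO and 2 in apilimod, where 18.9% and 29% of all genes were. FLVCR1, known as a choline transporter, scored -0.61 ± 0.61 in DMSO and -0.97 ± 1.11 in apilimod, and ETNPPL, which breaks down phosphoethanolamine, -0.34 ± 0.58 and -0.13 ± 0.44 (SD over 10 guides each). CHDH, which oxidises choline, was called in DMSO at -0.31 ± 0.52 (SD over 10 guides). The adjusted p-values of these calls ran from 0.000267 for FLVCR1 in DMSO to 0.0386 for ETNPPL in apilimod (exact rank-sum, Benjamini-Hochberg). The median score of this list was -0.05 in DMSO and -0.03 in apilimod, beside -0.03 and -0.04 over all genes.

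Of 14 scored genes of diacylglycerol supply, 4 were lower in DMSO (18.9% of all genes) and 2 in apilimod (29% of all genes). AGPAT2 and AGPAT1, which acylate lysophosphatidic acid, scored -1.21 ± 1.08 and -0.73 ± 0.75 in DMSO and -1.55 ± 0.68 and -0.44 ± 1.02 in apilimod (SD over 10 guides each). LPIN1, a phosphatidate phosphatase that yields diacylglycerol, was called in DMSO at -0.68 ± 0.53 (SD over 8 guides), as was AGPAT3 at -0.18 ± 0.34 (SD over 10 guides). In lysophospholipid reacylation 1 of 8 genes was lower in DMSO, LPCAT3 at -0.19 ± 0.28 (SD over 9 guides), and 0 of 8 in apilimod, beside the same shares of all genes. The median score of diacylglycerol supply was 0.0021 in DMSO and 0.13 in apilimod. None of these lists held a gene called in apilimod against DMSO.

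The neighbouring CDP-diacylglycerol branch, which leads to phosphatidylinositol and cardiolipin, was depleted in both arms. Here 4 of 5 scored genes were lower in each arm, where 18.9% of all genes were in DMSO and 29% in apilimod, with median scores of -1.20 in DMSO and -1.14 in apilimod. They were CDIPT, which makes phosphatidylinositol, CDS2, which makes CDP-diacylglycerol, and CRLS1 and PGS1 of cardiolipin synthesis. In apilimod against DMSO, 0 of these 5 genes had a z score below 0, against 10 of the 13 choline, ethanolamine and serine genes and 1523 of all 2969 genes. The difference between this branch and the 13 genes was not tested. Unscaled, the median ratio of the branch was 0.09. Among other lists with many depleted genes, 10 of 28 nucleotide synthesis genes and 5 of 16 V-ATPase genes had a z score below 0.

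In the hg38 build, by GENCODE annotation, PCYT1A lies on chromosome 3 from 196214222 to 196287957 on the minus strand, CEPT1 on chromosome 1 from 111139479 to 111185104 on the plus strand, PCYT2 on chromosome 17 from 81900958 to 81911432 on the minus strand and PISD on chromosome 22 from 31618491 to 31662221 on the minus strand. Some members share bases with neighbours. SLC51A runs over part of PCYT1A on the opposite strand, and 45 of the 1640 annotated coding bases of PCYT1A are coding in both. CEPT1, PCYT2 and PISD share no coding base with the protein-coding genes that overlap their ends (DRAM2, ANAPC11 and NPB, and SFI1). CHKB shares 180 of its 1185 coding bases with the annotated readthrough gene CHKB-CPT1B, and CHPT1 shares 13 of its 1350 with SYCP3 on the opposite strand. Whether any guide cuts in shared bases was not tested, because the sequences of the guides were not used here.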

How the data were processed

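The authors deposited raw counts of reads for each guide, with 1 library per group. Per the labels and the study's methods, reads were trimmed to the guide with cutadapt 4.1, aligned with Bowtie2 2.4.5 to the library's guides flanked by the vector, and tallied by MAGeCK 0.5.9.5. The series table and the files of single libraries did not differ in any count.

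Guides under 100 initial counts and genes under 6 guides were removed, following those methods, which left 28042 guides against 2969 genes. A pseudocount of 1 was added, and 1 library per group left no spread for a count model. The exact test (tied values share a mean rank) was written in Python 3.11.15 with numpy 2.4.6 and tested on simulated data. The scaling to nucleotide synthesis genes stands in for the core essential genes of the methods, and z scores are differences of scaled scores, centred and divided by their SD over genes. All member genes are named, with their lowest, highest and filtered guides. Other guides were named after their values were seen. Of other lists, at most 4 called genes are. Members, lists and tests were chosen with earlier results of these data known. Alternatives covered the filters, pseudocount, normalization, score, yardstick and scaling, and, chosen after seeing the data, extreme guides and guides at 0.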

Additional observations from a re-analysis of the deposited data

How the results depend on the processing

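No paired analysis was possible because each group had 1 library, and for the same reason none was left out. Of 455 values for single genes under 13 alternatives, 436 kept their direction and their side of the threshold, 6 lost their call and 13 changed sign. This tally is partly fixed by construction. Another library normalization shifts members and controls alike and left 36 of its 39 values and adjusted p-values as they were, and the median over guides left 26 of 39 adjusted p-values as they were, so neither bears on stability there. Setting guides at 0 to 3 counts, or leaving them out, could move only the scores of PCYT1A and PISD, since no other member had a kept guide at 0. The first of these left 21 of its 39 values and adjusted p-values as they were. A minimum of 3 guides could not move any member's score, since every member passed the standing minimum of 6. A changed yardstick or scaling acts only on the test, not on the score. With all gene-targeting guides as the yardstick, 5 of 13 genes were called lower in apilimod in place of 8, and 225 of all genes in place of 862. In DMSO 221 of all genes were called lower in place of 560. In apilimod against DMSO the calls over all genes, 17 lower and 6 higher, were 36 and 1 without scaling, 54 and 2 with V-ATPase genes as the reference and 42 and 5 without each gene's extreme guide. The count of called members in this comparison was 0 in all of these.

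The values that changed sign were all uncalled, and their log2 scores relative to the control median follow, with the cause not tested. With a minimum of 300 initial counts, apilimod against DMSO gave 0.16 for ETNK1 and 0.24 for PISD, and DMSO against the initial population 0.0299 for PCYT1B. With no minimum, ETNK1 stood at 0.24 in apilimod against DMSO. With the median over guides, PCYT1B stood at 0.0047 in DMSO, and apilimod against DMSO gave -0.0103 for PCYT1B and 0.0214 for PCYT2. Without the extreme guide, CHPT1 stood at -0.0210 in apilimod against DMSO and at -0.0193 against the initial population, ETNK1 at 0.0400 in apilimod against DMSO, and ETNK2 and PCYT1B at 0.0369 and 0.0413 in DMSO. Without guides at 0, PISD stood at 0.0128 in apilimod against DMSO. Over the 13 alternatives the ratio of PCYT1A relative to the control median, -1.61 as reported, was weakest at -0.33, without guides at 0. Guides under about 100 counts, and those at 0 after 14 days, limit what these libraries can show.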
